A study of Homo sapiens and Mus musculus with 16 samples.

Results

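The genes described here are 7 genes of cholesterol synthesis and its control: SREBF2, INSIG1, HMGCS1, IDI1, SQLE, EBP and DHCR7. They were taken by symbol from the human table and by the same symbol in mouse case from the mouse table. They are 7 of 58713 genes listed for MDA-MB-231 and 7 of 53796 genes listed for CT26. All 7 passed the filter on low values in each line (14450 genes passed it in MDA-MB-231, and 11342 did in CT26).

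RNA was sequenced from 16 libraries of cultured tumour cells. MDA-MB-231 cells are a line from human triple-negative breast cancer, and CT26 cells are from a colon carcinoma of the mouse. Each line had 4 PD-L1 knockout (KO) libraries, made with lentiviral CRISPR, and 4 libraries of cells with wild type PD-L1 (WT). PD-L1, the product of CD274, binds PD-1 on T cells and dampens them. Per the labels, MDA-MB-231 grew in DMEM and CT26 in RPMI 1640, each with serum. The sources used here do not say whether KO cells were a clone or a pool, whether WT cells carried a control virus, or whether a group's 4 libraries were separate cultures. If they were not, the p-values measure technical spread only. The 2 tables were normalized apart, so levels were compared within a line only. In bulk RNA, fewer cells of a type and less RNA per cell cannot be told apart.

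Cells make cholesterol from acetyl-CoA through mevalonate, isoprenoids, squalene and lanosterol. SREBF2 encodes SREBP-2, a membrane-bound transcription factor that is carried to the Golgi and cut free when sterols in the endoplasmic reticulum are low, and then raises transcription of the synthesis enzymes and of its own gene. INSIG1 is both a target of SREBP-2 and a brake on it, since its protein holds the SREBP carrier SCAP in the endoplasmic reticulum. HMGCS1 makes HMG-CoA, IDI1 interconverts the isoprenoid building blocks, and SQLE, a rate-limiting step, oxidizes squalene. EBP, the sterol isomerase, moves a double bond within the sterol ring, and DHCR7 later reduces it in the last part of the route.

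The stretches before the start sites of 4 of the human genes are printed here because SREBP-2 acts through sterol regulatory elements in such sequence, and because EBP went opposite to the other genes in MDA-MB-231. They are the 250 bases before the annotated start, 5′ to 3′ on the gene's strand, from RefSeq (GRCh38.p14). Capitals mark TCACNCCAC or its core CACNCCAC, a form of sterol regulatory element, and CCAAT, the NF-Y box, each on either strand.
SREBF2, chr22:41832855-41833104, plus strand: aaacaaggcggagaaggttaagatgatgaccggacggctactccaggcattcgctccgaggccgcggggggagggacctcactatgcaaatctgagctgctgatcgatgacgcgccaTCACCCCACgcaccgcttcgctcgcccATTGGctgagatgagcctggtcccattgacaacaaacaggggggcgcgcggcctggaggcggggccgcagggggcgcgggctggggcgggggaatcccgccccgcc
INSIG1, chr7:155297628-155297877, plus strand: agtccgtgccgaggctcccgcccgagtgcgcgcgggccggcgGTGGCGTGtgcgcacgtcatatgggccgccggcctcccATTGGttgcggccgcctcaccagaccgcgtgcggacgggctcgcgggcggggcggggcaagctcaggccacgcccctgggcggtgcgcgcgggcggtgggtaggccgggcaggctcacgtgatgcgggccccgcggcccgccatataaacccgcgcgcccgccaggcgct
HMGCS1, chr5:43313413-43313662, minus strand: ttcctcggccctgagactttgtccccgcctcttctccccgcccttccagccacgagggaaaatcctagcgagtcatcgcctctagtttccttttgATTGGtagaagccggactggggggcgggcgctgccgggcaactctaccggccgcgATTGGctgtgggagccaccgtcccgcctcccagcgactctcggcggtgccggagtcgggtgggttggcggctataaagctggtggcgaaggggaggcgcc
EBP, chrX:48521558-48521807, plus strand: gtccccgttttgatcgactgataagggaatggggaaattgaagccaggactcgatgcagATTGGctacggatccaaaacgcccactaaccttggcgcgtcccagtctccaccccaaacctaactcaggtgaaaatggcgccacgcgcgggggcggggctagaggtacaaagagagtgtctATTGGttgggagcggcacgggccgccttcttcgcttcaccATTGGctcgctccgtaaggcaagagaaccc

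Windows on chromosome 8, where SQLE lies, were not used for the 7 genes. The other 6 genes had 10 such windows in all. TCACNCCAC was found in 1 of the 10, that of SREBF2, and in 0.883% of 35116 windows of the same length across all genes. The core CACNCCAC, which the longer motif contains, was found in 3 windows, those of SREBF2, INSIG1 and IDI1, and in 4.87% of all windows. CCAAT was found in 7 of the 10 windows, in at least 1 window of each of the 6 genes, and in 32.0% of all windows. The EBP window held CCAAT 3 times, all on the opposite strand. No window of EBP, HMGCS1 or DHCR7 held CACNCCAC, and the other HMGCS1 window, not printed here, held no CCAAT. These matches describe letters in a window, not bound sites.

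The deposited values are FPKM, fragments per kilobase of transcript, scaled to the number of mapped fragments. Depth relative to the first WT library of the line, read from low values, was 0.509 to 0.779 in MDA-MB-231 KO and 0.941 to 1.21 in MDA-MB-231 WT, and 0.926 to 2.49 in CT26 KO and 0.799 to 1.14 in CT26 WT. CD274 averaged 10.6 ± 1.91 FPKM in MDA-MB-231 KO and 12.2 ± 0.670 FPKM in WT (SD, n = 4 each), a log2 fold change of -0.20 that did not pass limma's test (adjusted p = 0.166). Over 16 alternative settings of that fit it ran between -0.40 and -0.099, and it passed in 2 of them (lowest limma adjusted p = 0.0157). Cd274 averaged 0.526 ± 0.0552 FPKM in CT26 KO and 1.41 ± 0.127 FPKM in WT, and fell by 0.66 on the log2 scale (limma, adjusted p = 1.42e-04). A frameshift need not lower a transcript, so this is a weak check of the labels. In MDA-MB-231, VIM, CD44, AXL, KRT8 and KRT18 were expressed and ESR1, PGR and CDH5 were at or below 0.315 FPKM. In CT26, Krt8 was at or below 0.295 FPKM and Esr1 reached 4.46 FPKM, while the check listed Krt8 as present and Esr1 as near 0. Of 6 leukocyte markers, CD3E was at 0 in every library of both lines. Their summed level was 78.1 to 93.8 FPKM in KO and 101 to 109 FPKM in WT of MDA-MB-231, nearly all of it CD68, and 2.75 to 4.29 FPKM in KO and 4.65 to 5.96 FPKM in WT of CT26. PTPRC, LYZ and ITGAM were at 0 in every MDA-MB-231 KO library and above 0 in every WT library of that line, up to 0.715 FPKM. Of 6 fibroblast and endothelial markers, the summed level was 1.94 to 4.35 FPKM in KO and 2.99 to 4.96 FPKM in WT of MDA-MB-231, and 7.17 to 8.84 FPKM in KO and 7.80 to 8.83 FPKM in WT of CT26, where Lum and Cdh5 were at 0. The part of depth and of these markers in the results was not tested.

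In MDA-MB-231, 6 of the 7 genes were higher in KO than in WT, by 2.04 to 3.62 times in mean FPKM, and EBP alone of the 7 was lower, at 36.1% of WT. No KO library overlapped a WT library for any of the 7. Large parts of the transcriptome differed between these groups: of 14450 genes, 68.2% were called, 42.6% higher and 25.7% lower in KO, and the groups did not overlap for 62.7%. A count of 6 of 7 higher is to be read against that background. The median log2 fold change over all tested genes was 0.18, and relative to it the changes of these genes were 0.78 to 1.59 for the 6 and -1.63 for EBP. After upper-quartile scaling, 49.4% of the calls were higher in KO, against 62.4% as deposited, with a median of -0.01, and all 7 genes kept their direction and call.

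Among the regulators, SREBF2 (ENSG00000198911, hg38 chr22:41831215-41907308) had 42.6, 42.5, 42.0 and 41.7 FPKM in the KO libraries and 12.2, 10.7, 11.3 and 12.4 FPKM in the WT libraries. The 4 KO libraries were close together and all above WT. The log2 fold change, on log2(FPKM + 1) throughout, was 1.77 (SE 0.059, 95% interval 1.64 to 1.91, limma adjusted p = 3.34e-08). INSIG1 (ENSG00000186480, chr7:155297776-155310235) had 29.3, 32.1, 35.5 and 33.3 FPKM in KO and 12.1, 12.2, 11.2 and 11.4 FPKM in WT. Its log2 fold change was 1.39 (SE 0.071, adjusted p = 3.57e-07). Thus both the gene for the factor and the gene for its brake were higher in KO.

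Among the early enzymes, HMGCS1 (ENSG00000112972, chr5:43287601-43313512) had 20.5, 24.2, 19.8 and 18.4 FPKM in KO and 10.2, 9.77, 10.9 and 9.76 FPKM in WT, a log2 fold change of 0.96 (SE 0.090, adjusted p = 1.64e-05). IDI1 (ENSG00000067064) had 48.2, 55.7, 46.1 and 47.7 FPKM in KO and 17.5, 17.3, 16.8 and 16.6 FPKM in WT, a log2 fold change of 1.48 (SE 0.067, adjusted p = 1.83e-07). The interval the table gives for IDI1, chr10:971146-1049170, is longer than the gene and takes in neighbouring genes, and its paralog IDI2 lies beside it, so shared reads make this value less certain. SQLE (ENSG00000104549), at the squalene step, was the lowest of the 7 and the most variable in WT, with 13.3, 15.7, 14.8 and 12.9 FPKM in KO and 4.41, 6.69, 8.87 and 5.78 FPKM in WT. Every KO library of SQLE was above every WT library, and its log2 fold change was 1.06 (SE 0.17, adjusted p = 5.15e-04).

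The late enzymes DHCR7 and EBP went in opposite directions. DHCR7 (ENSG00000172893, chr11:71428193-71452868) had 52.0, 50.9, 50.05 and 40.7 FPKM in KO and 23.0, 20.2, 21.9 and 23.5 FPKM in WT, a log2 fold change of 1.09 (SE 0.088, adjusted p = 6.37e-06). EBP (ENSG00000147155, chrX:48521158-48528716) had 41.3, 49.1, 43.1 and 44.2 FPKM in KO and 124, 125, 124 and 118 FPKM in WT. Its highest KO library was far below its lowest WT library. EBP fell by 1.45 on the log2 scale (SE 0.058, 95% interval -1.58 to -1.32, adjusted p = 9.41e-08), which put it at place 861 of 14450 genes ordered from the largest fall. Each of the 7 genes had p = 0.0286 in a two-sided exact permutation test of its 8 values, the smallest p that 70 assignments allow.

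**Figure D1:**
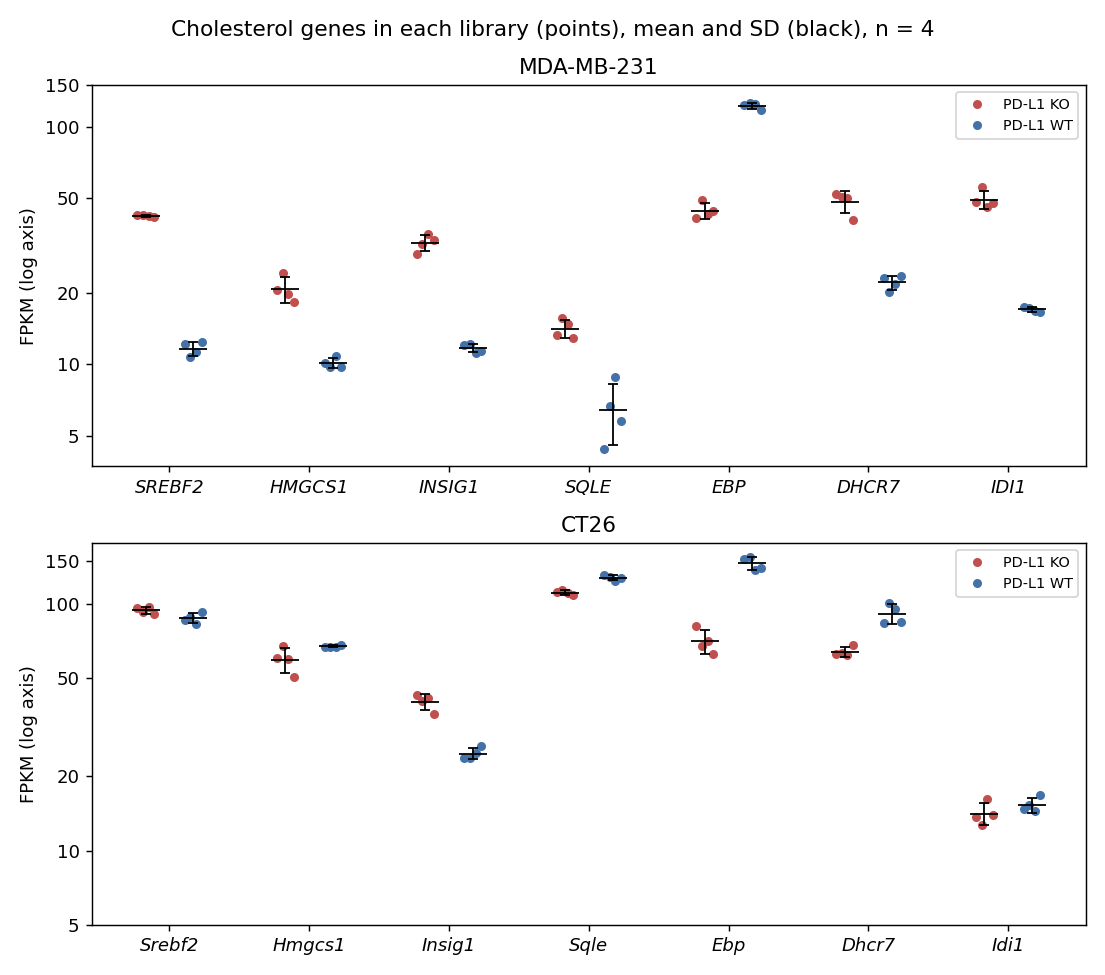
FPKM of the 7 genes in every library of MDA-MB-231 and CT26, with a point for each of 4 KO and 4 WT libraries and the group mean; the axis is logarithmic. In MDA-MB-231 the KO points lie above WT for 6 genes and below WT for EBP, and in CT26 the widest gap is that of Ebp.

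In CT26 the same genes did not move as a block. Insig1 was higher in KO at 1.63 times WT, Ebp, Dhcr7 and Sqle were lower at 48.2%, 69.9% and 87.0% of WT, and Srebf2, Hmgcs1 and Idi1 were not called. Over all 11342 genes tested, 55.8% were called, 22.3% higher and 33.5% lower in KO, and the groups did not overlap for 51.5%, against 4 of these 7. The median log2 fold change over all tested genes was -0.06. After upper-quartile scaling, 53.9% of the calls were higher in KO, against 40.0% as deposited, with a median of 0.03.

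Of the regulators, Srebf2 (ENSMUSG00000022463, mm10 chr15:82147181-82205379) had 96.1, 93.1, 97.4 and 91.1 FPKM in KO and 85.9, 88.5, 83.4 and 93.02 FPKM in WT. The ranges overlapped, and the log2 fold change was 0.11 (95% interval 0.01 to 0.20, limma adjusted p = 0.0531; exact permutation p = 0.0571). This call depends on the setting: upper-quartile scaling gave 0.20 on the log2 scale (adjusted p = 0.00113), and over all alternatives the adjusted p ran between 0.00113 and 0.125. Insig1 (ENSMUSG00000045294, chr5:28071363-28078662) had 42.8, 40.5, 41.7 and 35.9 FPKM in KO and 23.8, 23.8, 24.9 and 26.5 FPKM in WT. The lowest KO library was well above the highest WT library, and Insig1 rose by 0.68 on the log2 scale (SE 0.062, adjusted p = 3.84e-05). Insig1 is the gene of the 7 that was called higher in both lines, which held for 11.5% of 8667 genes paired by symbol and tested in both.

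Hmgcs1 (ENSMUSG00000093930, chr13:119690379-119708260) had 60.3, 67.3, 59.8 and 50.4 FPKM in KO and 67.04, 67.1, 67.2 and 68.5 FPKM in WT. The WT libraries were close together while KO spread more widely, and the groups overlapped. The log2 fold change of -0.19 (95% interval -0.36 to -0.01) did not pass the test (adjusted p = 0.0672). Without KO library 2 it was -0.25 and passed (adjusted p = 0.0149). Idi1 (ENSMUSG00000058258, chr13:8884914-8892451) had 13.7, 12.7, 16.2 and 13.9 FPKM in KO and 14.7, 15.2, 14.4 and 16.9 FPKM in WT, a log2 fold change of -0.11 (95% interval -0.29 to 0.07, adjusted p = 0.258). Sqle (ENSMUSG00000022351, chr15:59315077-59331192) had 112, 114, 111 and 108 FPKM in KO and 131, 129, 124 and 128 FPKM in WT. The groups did not overlap, and Sqle had a log2 fold change of -0.20 (SE 0.029, adjusted p = 4.67e-04).

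Dhcr7 (ENSMUSG00000058454, chr7:143823145-143848410) had 62.5, 63.4, 61.9 and 68.0 FPKM in KO and 84.1, 101, 95.8 and 84.7 FPKM in WT, and fell by 0.51 on the log2 scale (SE 0.066, adjusted p = 2.65e-04). Ebp (ENSMUSG00000031168, chrX:8185329-8193512) had 81.2, 67.7, 70.97 and 62.7 FPKM in KO and 153, 156, 137 and 141 FPKM in WT. No KO library reached the lowest WT library, and Ebp fell by 1.05 on the log2 scale (SE 0.079, 95% interval -1.23 to -0.87, adjusted p = 1.28e-05). That was place 212 of 11342 genes from the largest fall, and the largest change of the 7 genes in CT26. Being called lower in both lines held for 9.05% of the 8667 paired genes, and being called with a log2 fold change of -1 or below in both held for 41 genes, 0.473%, of which EBP is a member. That cut lies close to the Ebp estimate in CT26. After upper-quartile scaling and after quantile normalization Ebp was at -0.96 there, short of the cut, so its place among the 41 depends on the scaling.

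The change in KO differed between the lines for all 7 genes when the difference itself was tested (limma over the 16 libraries, MDA-MB-231 minus CT26). A difference was called for 72.2% of the 8667 paired genes, with the response higher in MDA-MB-231 for 50.1% and lower for 22.0%, so this too is read against a high background, and the median difference over them was 0.30. The difference was 1.67 for SREBF2 (SE 0.071, adjusted p = 2.82e-12), where the response was 1.77 in MDA-MB-231 and 0.11 in CT26. It was 1.59 for both DHCR7 (adjusted p = 1.26e-09) and IDI1 (adjusted p = 8.59e-10). DHCR7 rose in MDA-MB-231 and fell in CT26, as SQLE did, for which the difference was 1.26 (adjusted p = 4.99e-06). It was 1.14 for HMGCS1 (adjusted p = 1.66e-07) and 0.72 for INSIG1 (adjusted p = 4.41e-06). The difference for EBP was -0.40 (SE 0.099, 95% interval -0.61 to -0.19, adjusted p = 0.00163): it was lower in KO in both lines, by more in MDA-MB-231. Scaling moved these sizes: after upper-quartile scaling the difference was -0.71 for EBP and 0.42 for INSIG1.

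**Figure D2:**
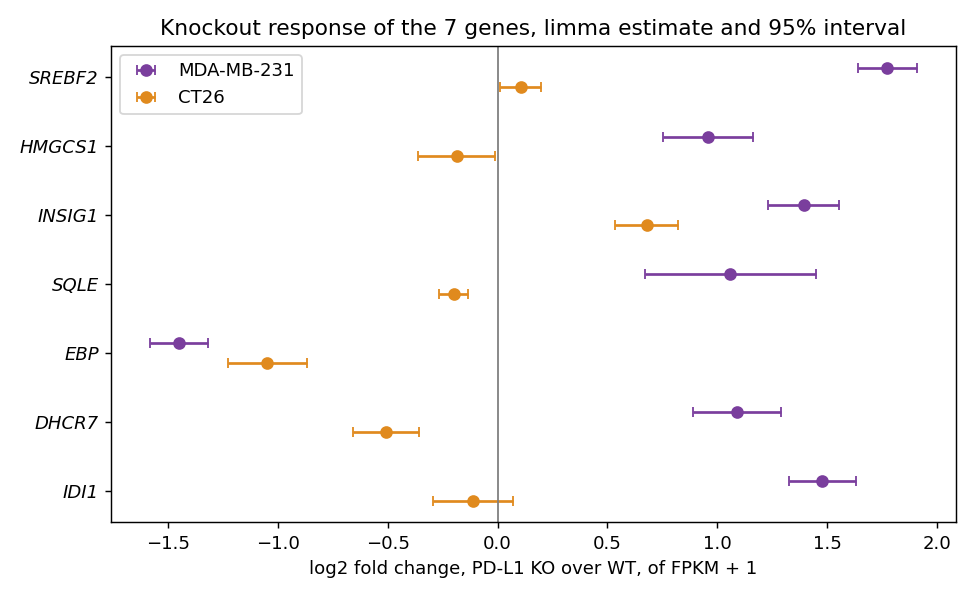
Log2 fold change of each gene, KO over WT, with its 95% interval, in MDA-MB-231 and in CT26. EBP is below 0 in both lines, at -1.45 and -1.05, and the other genes lie between 0.96 and 1.77 in MDA-MB-231 and between -0.51 and 0.68 in CT26.

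The ratio of EBP to each of the other genes within a library sets aside any scaling of the library as a whole. In MDA-MB-231 the log2 ratio of EBP to SREBF2 averaged 0.07 ± 0.10 in KO and 3.29 ± 0.12 in WT (SD, n = 4 each), a difference of -3.22. For the other 5 partners the difference in log2 ratio ran between -2.93 for IDI1 and -2.41 for HMGCS1. In CT26 it ran between -1.73 for Insig1 and -0.54 for Dhcr7, with -1.15 for Srebf2. The KO and WT libraries did not overlap in any of these 12 ratios. EBP by itself already separated KO from WT in each line, so this count adds little about the partners. Among single tested genes, such separation held for 62.7% (MDA-MB-231) and 51.5% (CT26). The ratios are given as a description with no test, since EBP was singled out with earlier results known.

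The order of the levels, in FPKM, changed with EBP. In MDA-MB-231 KO, IDI1 averaged 49.4 ± 4.26, DHCR7 48.4 ± 5.20, EBP 44.4 ± 3.32 and SREBF2 42.2 ± 0.409 FPKM, neighbours whose libraries overlapped. They were followed by INSIG1 with 32.5 ± 2.58, HMGCS1 with 20.7 ± 2.51 and SQLE with 14.2 ± 1.28 FPKM, each apart from the next. In MDA-MB-231 WT, EBP stood alone at 123 ± 3.57 FPKM, above DHCR7 with 22.2 ± 1.48 and IDI1 with 17.1 ± 0.411 FPKM. INSIG1, SREBF2 and HMGCS1 then overlapped with their neighbours at 11.7 ± 0.491, 11.6 ± 0.777 and 10.1 ± 0.520 FPKM, and SQLE was last with 6.44 ± 1.87 FPKM. In CT26 KO, Sqle was first with 111 ± 2.44 FPKM, then Srebf2 with 94.4 ± 2.89 FPKM, and Ebp with 70.7 ± 7.80 FPKM overlapped with Dhcr7. In CT26 WT, Ebp was first with 147 ± 9.04 FPKM, then Sqle with 128 ± 2.84 FPKM, and Dhcr7 and Srebf2 overlapped. Insig1 and Idi1 were the lowest pair in both CT26 groups.

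The wider route was read from a list of 29 synthesis and control genes that holds the 7. In MDA-MB-231, 20 of the 29 were higher, 4 lower and 5 not called, with a median log2 fold change of 0.77 against 0.18 over all tested genes. Over all tested genes 42.6% were higher and 25.7% lower. Of the 22 that are not among the 7, 14 were higher and 3 lower, with a median of 0.65. In CT26, 27 of the 29 were tested, and 9 were higher, 10 lower and 8 not called, with a median of -0.07 against -0.06 over all tested genes. Over all tested genes 22.3% were higher and 33.5% lower. Of the 20 tested there that are not among the 7, 8 were higher and 7 lower, with a median of 0.10.

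Step by step in MDA-MB-231, the counts are read against 42.6% higher and 25.7% lower over all tested genes. The counts of synthesis and sensing genes here and below include the 7 genes themselves, which were chosen with earlier results known. Of 9 mevalonate and isoprenoid genes, 7 were higher and 1, GGPS1, was lower. ACAT2, which joins acetyl-CoA units at the entry, averaged 124 ± 9.53 FPKM in KO and 38.3 ± 1.73 FPKM in WT, a log2 fold change of 1.66 (limma adjusted p = 6.79e-08). MVK, mevalonate kinase, had a log2 fold change of 1.34 (adjusted p = 8.15e-07) and FDPS, which makes farnesyl diphosphate, 0.74 (adjusted p = 4.42e-06). From squalene on, 8 of 13 genes were higher and EBP and TM7SF2 were lower. FDFT1, squalene synthase, averaged 128 ± 3.12 FPKM in KO and 42.6 ± 4.01 FPKM in WT (log2 fold change 1.57). CYP51A1, lanosterol demethylase, had a log2 fold change of 1.26. The fall of TM7SF2, a sterol reductase with a log2 fold change of -0.48 (adjusted p = 0.0193), lost its call without KO library 2, KO library 4 or WT library 1. Of the 13 genes EBP had the highest mean FPKM in WT.

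Among the genes of sterol sensing in MDA-MB-231, 5 of 7 were higher and 1 lower, against 42.6% and 25.7% of all tested genes. INSIG2, the INSIG1 paralog, fell to 11.3 ± 2.67 FPKM in KO, against 27.2 ± 1.19 FPKM in WT (log2 fold change -1.22, adjusted p = 4.73e-05), so the pair of INSIG genes went opposite ways. MBTPS1, the first protease that cuts SREBPs, had a log2 fold change of 0.56 (adjusted p = 2.38e-05). In CT26, Insig1 was higher and Insig2 lower as well: Insig2 averaged 61.4 ± 6.14 FPKM in KO and 82.3 ± 4.39 FPKM in WT, a log2 fold change of -0.42 (adjusted p = 0.00132).

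In CT26 the steps were mixed, against 22.3% higher and 33.5% lower over all tested genes. Of 8 tested mevalonate and isoprenoid genes 3 were higher and 2 lower, with Fdps at 0.35 and Pmvk, phosphomevalonate kinase, at 0.32, but Mvk at -0.20 and Acat2 at -0.19 on the log2 scale. Acat2 lost its call after upper-quartile scaling and after quantile normalization (adjusted p up to 0.0588). Of 12 tested genes from squalene on, 3 were higher and 7 lower. Sc5d, a sterol desaturase and 1 of the 7, lost its call in 7 of 16 alternatives. Tm7sf2 was the clearest rise, with 39.3 ± 0.942 FPKM in KO and 22.1 ± 1.91 FPKM in WT (log2 fold change 0.81, limma adjusted p = 1.12e-05), and Hsd17b7, a sterol ketone reductase, the clearest fall after Ebp, with 5.17 ± 0.389 FPKM in KO and 9.15 ± 0.513 FPKM in WT (log2 fold change -0.72). TM7SF2 was lower in MDA-MB-231 KO, and its response differed between the lines by -1.29 (MDA-MB-231 minus CT26, limma adjusted p = 2.25e-06).

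**Figure D3:**
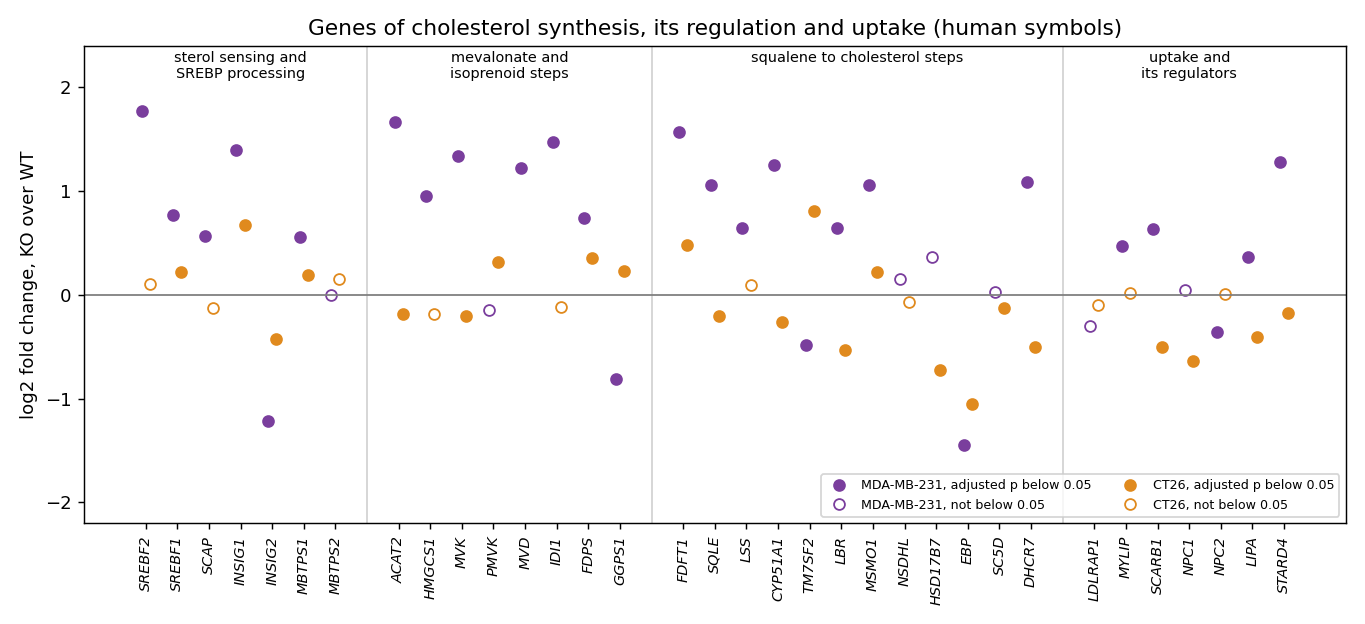
Log2 fold change, KO over WT, of the tested genes of sterol sensing, mevalonate steps, later steps and uptake in both lines, for genes named by symbol on the axis; filled points passed the test and open points did not. In MDA-MB-231 most points lie above 0 and EBP is the lowest, at -1.45, while in CT26 the points lie on both sides of 0, between -1.05 and 0.81.

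Uptake genes were read beside synthesis. Of 9 uptake genes in MDA-MB-231, 5 were higher and 1 lower, against 42.6% and 25.7% of all tested genes, and LIPA, a lysosomal lipase and 1 of the 5, lost its call after upper-quartile scaling. STARD4, a sterol carrier, rose by 1.28 on the log2 scale (adjusted p = 8.82e-07). NPC2, a lysosomal sterol carrier, fell by 0.36 on the log2 scale. Of 8 tested uptake genes in CT26, none was higher and 5 were lower, against 22.3% and 33.5% of all tested genes, among them Npc1, the lysosomal exporter, with a log2 fold change of -0.64, and Scarb1, an HDL receptor, with -0.50.

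EBP lies on the X chromosome in both species, and the genes beside it were also lower in KO. Of 20 other tested genes within 500 kb of EBP in MDA-MB-231, 17 were lower (85.0%, against 25.7% of all genes) and 0 higher, with a median log2 fold change of -0.65. Of 19 within 500 kb of Ebp in CT26, 18 were lower (94.7%, against 33.5% of all genes) and 0 higher, with a median of -0.95. Leaving out 2 genes in each line whose mean in KO was under 1 FPKM, 15 of 18 and 16 of 17 were lower. The 2 lists share 13 genes, 65.0% of the human list and 68.4% of the mouse list, so they are not separate sets of genes. Of these 13, 11 were lower in both lines, against 9.05% of the 8667 genes paired by symbol. The exceptions were SUV39H1 and OTUD5, which were not called in MDA-MB-231 but were called lower there after upper-quartile scaling.

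EBP fell further than most of its neighbours in MDA-MB-231 and about as far as they did in CT26. In MDA-MB-231 it was at place 4 of 21 from the lowest and 0.80 below the neighbours' median on the log2 scale, and in CT26 at place 9 of 20, with a difference from the median of -0.09. PORCN, which adds a lipid to Wnt proteins and lies 344 bases from EBP in the human table, averaged 17.4 ± 2.42 FPKM in KO and 57.3 ± 3.82 FPKM in WT of MDA-MB-231 (log2 fold change -1.67, limma adjusted p = 7.82e-07). FTSJ1, a tRNA methyltransferase, averaged 73.4 ± 5.66 FPKM in KO and 116 ± 2.47 FPKM in WT. SLC38A5, an amino acid transporter, averaged 0.106 ± 0.145 FPKM in KO and 4.67 ± 1.71 FPKM in WT and had the largest fall of the group. It passed the filter through the WT libraries alone, and its log2 fold change of -2.32 depends on the pseudocount. On the other side, TBC1D25 and RBM3, a cold-induced RNA-binding protein, had log2 fold changes of -0.55 and -0.53. HDAC6, a tubulin deacetylase, averaged 44.6 ± 4.34 FPKM in KO and 125 ± 12.1 FPKM in WT.

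In CT26, Porcn had a log2 fold change of -0.32 and Ftsj1 of -1.11, and on the other side Tbc1d25 had -0.81, Rbm3 -0.79 and Wdr13 -1.01. The largest fall was that of Praf2, at 0.252 ± 0.195 FPKM in KO and 20.03 ± 0.502 FPKM in WT, 454 kb from Ebp. Praf2 passed the filter through the WT libraries alone, and its log2 fold change of -4.08 was -6.01 with a pseudocount of 0.1 and -2.25 with a pseudocount of 5. Wdr45, listed with the same interval as Praf2, had -1.84 and Ccdc120 -1.75. Genes listed with a shared interval, as this pair is, may share reads, and the sources used here do not say whether strand was used. The next genes out were named after their values were seen: in MDA-MB-231, PRAF2 at 542 kb had a log2 fold change of -1.19 and CCDC120 at 525 kb was listed at 0 in all 4 KO libraries and at 4.26 ± 0.297 FPKM in WT.

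The falls did not stop at 500 kb. Between 0.5 and 2 Mb from EBP, 22 of 31 tested genes were lower and 3 higher in MDA-MB-231 KO, with a median log2 fold change of -0.71, and 9 of 10 were lower and 1 higher in CT26 KO, with a median of -0.80. Between 2 and 5 Mb, 12 of 25 were lower and 5 higher in MDA-MB-231, with a median of -0.48, and 6 of 8 were lower and 0 higher in CT26, with a median of -0.76. Between 5 and 10 Mb the medians were -0.24 over 31 genes in MDA-MB-231 and -0.47 over 6 genes in CT26. Over all X-linked genes beyond 500 kb, 199 of 448 were lower and 111 higher in MDA-MB-231, with a median of -0.19, and 111 of 317 were lower and 51 higher in CT26, with a median of -0.07. All tested genes in MDA-MB-231 were 25.7% lower and 42.6% higher, with a median of 0.18. All tested genes in CT26 were 33.5% lower and 22.3% higher, with a median of -0.06. The CT26 median of X-linked genes beyond 500 kb was thus close to that of all tested genes, but it pools near and far genes. Every tested CT26 gene between 10 Mb and Wdr44 at 15.6 Mb was below 0, though not all were called. They ran from -1.21 for Jade3 to -0.20 for Usp11. The next tested gene, Dock11, lay at 27.8 Mb with -0.25, and further out the values lay on both sides of 0. The counts by distance from EBP are a description and carry no test.

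**Figure D4:**
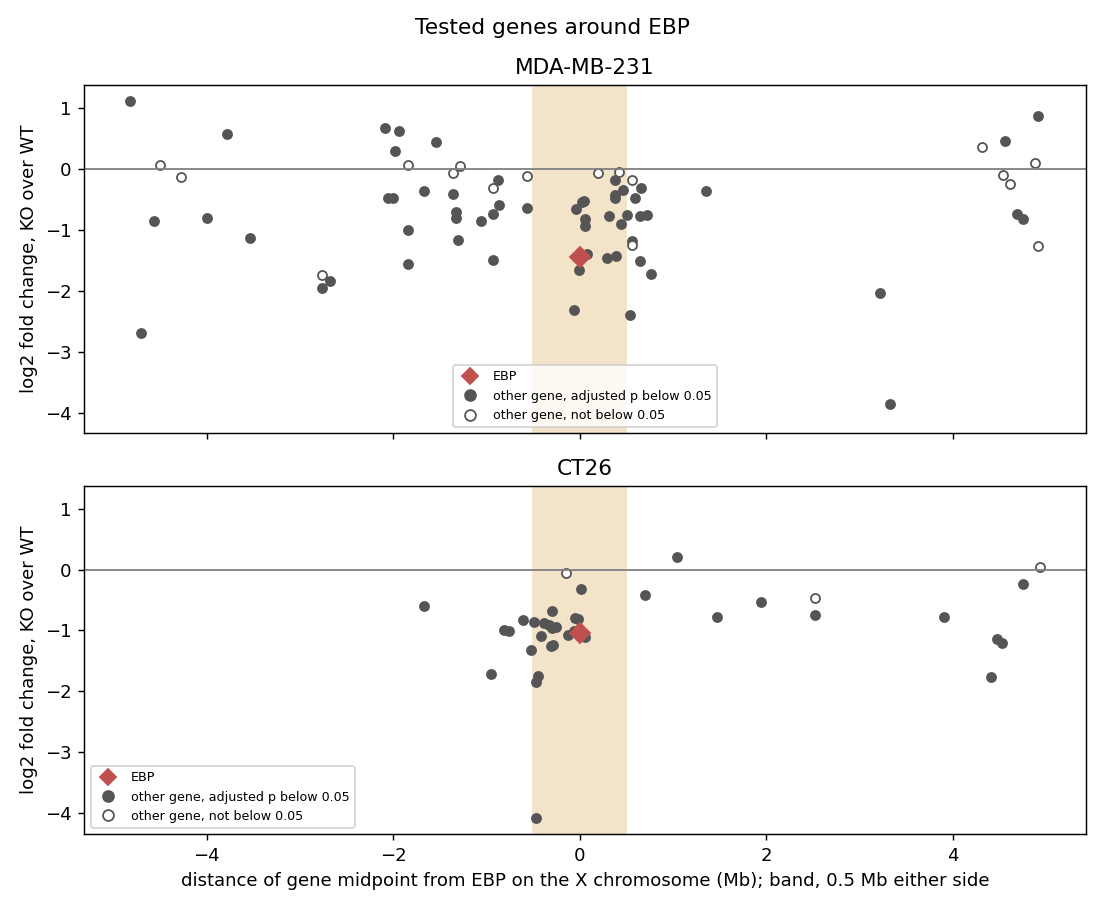
Log2 fold change, KO over WT, of tested X-linked genes by the distance of their midpoint from EBP in Mb, MDA-MB-231 above and CT26 below; the band spans 0.5 Mb on either side. Within the band the points lie below 0 in both lines, and EBP is marked at -1.45 and -1.05. The medians of -0.65 and -0.95 in the text count genes by their nearest end and not by midpoint.

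For the other 6 genes the neighbours were mixed. In MDA-MB-231 the share of tested neighbours within 500 kb that were lower was 23.8% of 21 for SREBF2, 10.0% of 10 for HMGCS1, 28.6% of 7 for INSIG1 and 16.7% of 6 for DHCR7, with medians between -0.11 and 0.18. SREBF2, INSIG1 and DHCR7 were each the highest of their neighbourhood. Near SQLE and IDI1 the neighbours were themselves higher, with medians of 0.88 over 6 genes and 1.07 over 4 genes, and SQLE was 0.18 above that median. In CT26, Dhcr7 was the lowest of 7 and Insig1 the highest of 3 in their neighbourhoods, whose medians were -0.09 and 0.40, and the share of lower neighbours ran between 0% for Insig1 and 42.9% for Hmgcs1.

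The genes whose level followed EBP most closely over the 8 libraries of a line were sought among genes averaging 5 FPKM or more. In MDA-MB-231, out of 10126 genes, they were PTGES, PHF1 and ASIC3, each with a Pearson r of 0.999 to EBP, and for SREBF2 they were IL11, MARCHF4 and E2F4, each also with 0.999. In CT26, out of 8817 genes, they were Gpd2 (0.997), Hmces (0.994) and Ly75 (0.993) for Ebp, and Fam69a (0.976), Dnajb14 (0.974) and Emc6 (0.969) for Srebf2. None of these 12 genes lies on the chromosome of the gene it followed. With 2 groups of 4 libraries, such an r mostly records that both genes differ between KO and WT, and it is given as a description.

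In the authors' deposited table for MDA-MB-231, all 7 genes had a q-value of 1.50e-04, the smallest in that table. In the authors' deposited table for CT26, Insig1 and Ebp had 2.14e-04, the smallest there, and Sqle 0.00356. The q-value of Dhcr7 in the authors' deposited table was 0.0623, above the threshold that limma's test passed, and those of Hmgcs1, Idi1 and Srebf2 were 0.0784, 0.408 and 0.420.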

How the data were processed

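Per the submitters' processing notes, bcl2fastq 2.18, STAR 2.5.4a, Cufflinks 2.2.1 and Cuffdiff were used, with builds hg38 and mm10. The sources used here do not name the annotation, the strand setting or how Cuffdiff was run. The authors deposited 1 table per line, with FPKM per gene and library and their own p-value and q-value per gene. Genes with the authors' status for too much data (13 in MDA-MB-231, 210 in CT26) were at 0 in every library.

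From these, log2(FPKM + 1) was tested with limma 3.58.1 (R 4.3.3, mean-variance trend, two-sided, group as the only term) for genes with at least 1 FPKM in at least 4 of 8 libraries. P-values were adjusted by Benjamini-Hochberg over all genes tested, with a threshold of 0.05. Fold changes of low genes are understated on this scale. The lines were compared over genes paired by symbol. Depth is known only in relative terms, and shallow libraries carry more counting error. Intervals are 95% confidence intervals for the estimated difference, based on the spread between libraries. They are not ranges of library values. Table coordinates are given 1-based. Plots and counts used Python 3.11.15. Promoter windows are from RefSeq, GRCh38.p14.

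The 7 genes, the gene lists and the motifs were chosen with earlier results of these data known. Named genes were the 7, the targeted gene, up to 4 per list with the smallest adjusted p, the nearest and largest neighbours of EBP, and the 3 genes most like EBP or SREBF2. Genes named outside this rule, such as GGPS1, LIPA, SUV39H1 and OTUD5, were chosen after their values were seen. Some list genes that the rule names are counted but not reported here by name or drawn. Alternatives were another pseudocount, filter, scaling, trend setting and replicate block, and leaving out each library.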

Additional observations from a re-analysis of the deposited data

Results flagged for a closer look

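Of 28 groups of 4 libraries (7 genes, 2 lines, KO and WT), 3 held a library far from the others by Dixon's criterion, where chance gives about 1 in 20. In MDA-MB-231, DHCR7 had 40.7 FPKM in the fourth KO library, with the nearest KO library at 50.05 FPKM. EBP had 118 FPKM in the fourth WT library of MDA-MB-231, with the nearest WT library at 124 FPKM. Hmgcs1 had 68.5 FPKM in the fourth WT library of CT26, with the nearest at 67.2 FPKM, in a group with a very narrow range.

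The response to the knockout differed between the lines, MDA-MB-231 minus CT26, for all 7 genes in limma's contrast. The difference was 1.67 for SREBF2 (adjusted p = 2.82e-12), 0.72 for INSIG1 (adjusted p = 4.41e-06), 1.14 for HMGCS1 (adjusted p = 1.66e-07) and 1.59 for IDI1 (adjusted p = 8.59e-10). It was 1.26 for SQLE (adjusted p = 4.99e-06), 1.59 for DHCR7 (adjusted p = 1.26e-09) and -0.40 for EBP (adjusted p = 0.00163). Line, species and culture medium cannot be told apart in these differences.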

How the results depend on the processing

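No called result changed direction under any alternative run. In MDA-MB-231 all 7 genes kept their call under every alternative, and so did Insig1, Sqle, Ebp and Dhcr7 in CT26 and all 7 differences between the lines. The number of the 7 called higher in CT26 was 2 in place of 1 with a filter at 5 FPKM, after upper-quartile scaling and after quantile normalization, and 1 to 2 with a library left out. The added gene was Srebf2, with log2 fold changes of 0.11 (limma adjusted p = 0.0498) with the filter at 5 FPKM, 0.20 (adjusted p = 0.00113) after upper-quartile scaling and 0.18 (adjusted p = 0.00321) after quantile normalization. With a library left out it ran between 0.083 and 0.13, and was called without the fourth KO or the fourth WT library. Hmgcs1 in CT26 ran between -0.25 and -0.11 with a library left out, and the number of the 7 called lower there between 3 and 4. The cause of these shifts was not tested. Over the fits of other list genes and neighbours under these alternatives, 42 values lost the main call and 23 gained one. After upper-quartile scaling and quantile normalization, the difference between the lines was -0.71 and -0.73 for EBP and 0.42 and 0.48 for INSIG1.

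Same-numbered KO and WT libraries deviated together little or not at all: their correlations were -0.04 to 0.00 in MDA-MB-231 and 0.03 to 0.08 in CT26. The labels do not say whether the numbers pair the libraries. In CT26 every KO library was closest to the WT library of its own number, a hint from the data and not from the design. With the replicate number as a block, 9648 genes were called in MDA-MB-231, against 9860 without it, and 6032 in CT26, against 6328, and the calls of all 7 genes were the same. In MDA-MB-231 the KO libraries were shallower than the WT libraries, which limits genes at low FPKM most, and the effect of depth on the 7 genes was not tested.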

Other observations

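Cholesterol efflux and storage were read from a list of 7 genes. It also holds the oxysterol receptor (LXR) genes NR1H2 and NR1H3 and enzymes that oxidize cholesterol. In MDA-MB-231, 5 passed the filter, and 2 were higher and 3 lower in KO, against 42.6% and 25.7% of all tested genes. The 2 that were higher were NR1H2 and NR1H3, and the 3 that were lower were ABCA1, SOAT1 and CYP27A1. NR1H2, an LXR gene and 1 of the 2, lost its call after upper-quartile scaling and after quantile normalization (limma adjusted p up to 0.879). ABCA1, the sterol efflux pump, averaged 0.738 ± 0.199 FPKM in KO and 5.50 ± 0.257 FPKM in WT (SD, n = 4 each). CYP27A1, which oxidizes the cholesterol side chain, had 0 to 0.444 FPKM in KO and 2.86 to 3.77 FPKM in WT. Both passed the filter through the WT libraries alone, and the size of their log2 fold changes depends on the pseudocount, from -2.77 to -0.87 for ABCA1 and from -3.85 to -0.68 for CYP27A1. NR1H3, the oxysterol receptor LXR alpha, had a log2 fold change of 1.11 (adjusted p = 6.22e-05). In CT26, 3 of the 7 passed the filter. Abca1 averaged 5.57 ± 0.586 FPKM in KO and 2.81 ± 0.301 FPKM in WT, a log2 fold change of 0.79 (adjusted p = 1.20e-04), and Soat1, which esterifies cholesterol for storage, had -0.70 (adjusted p = 2.88e-05).

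Mvd, the last enzyme before the isoprenoid units, was listed at 0 in all 8 CT26 libraries, with the authors' status for too much data, so this 0 is not a measured level.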
